A study of Mus musculus with 6 samples.

Results

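De novo lipogenesis, the route by which a cell makes fatty acids from carbohydrate and acetate, was examined through 9 genes in cultured mouse dermal cells with and without Nelfb, a subunit of the negative elongation factor that controls RNA polymerase II pausing. The genes were chosen by name: Acly, Acaca, Acacb, Fasn, Me1, Acss2, Thrsp, Srebf1 and Mlxipl. All 9 were among the 17924 genes of the expression table, and all 9 were among the 16251 genes with enough reads to test. Fibroblasts came from the dorsal skin of P0 pups and were kept in adipocyte differentiation medium for 14 days before total RNA was sequenced. The 3 CTL libraries were from Pdgfra-Cre+ cells whose Nelfb alleles were fl/wt or wt/wt, and the 3 Nelfb-/- libraries were from Nelfb fl/fl Pdgfra-Cre+ cells. Every library therefore carried the Cre, which is driven by the Pdgfra promoter of preadipocyte lineages, and the labels do not say which of the CTL genotypes each CTL library had. The replicates were described as biological.

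In adipocytes, citrate exported from mitochondria is split by ATP citrate lyase to give cytosolic acetyl-CoA, which acetyl-CoA carboxylase turns into malonyl-CoA and fatty acid synthase assembles into palmitate. Malic enzyme supplies part of the NADPH that the synthase consumes. SREBP1c, made from Srebf1, and ChREBP, made from Mlxipl, are the transcription factors through which insulin and glucose are known to raise these enzymes.

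The letters upstream of 4 of the genes are shown because known inputs to lipogenic promoters, an E-box (CACGTG), a sterol regulatory element (TCACNCCAC), a CCAAT box (CCAAT), a GC box (GGGCGG) and a TATA box (TATAAA), can be looked for in them. With all 6 libraries, Acly and Fasn are the pair with the largest change among the 4 read ratios examined. Without CTL replicate 1 or without Nelfb-/- replicate 1, the change was larger for Acly to Acss2. Thrsp was lower in every Nelfb-/- library, and Mlxipl held the E-box found in the set. The sequences are those of RefSeq on GRCm38.p6, the 250 bases before each start, written 5′ to 3′ along the gene. Capitals mark matches to these motifs on either strand.
Acly, chr11:100528001-100528250, minus strand: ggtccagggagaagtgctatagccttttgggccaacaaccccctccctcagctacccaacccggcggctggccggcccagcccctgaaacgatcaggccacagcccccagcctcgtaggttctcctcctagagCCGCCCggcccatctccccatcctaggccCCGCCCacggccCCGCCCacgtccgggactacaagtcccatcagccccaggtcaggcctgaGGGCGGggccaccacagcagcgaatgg
Fasn, chr11:120824548-120824797, minus strand: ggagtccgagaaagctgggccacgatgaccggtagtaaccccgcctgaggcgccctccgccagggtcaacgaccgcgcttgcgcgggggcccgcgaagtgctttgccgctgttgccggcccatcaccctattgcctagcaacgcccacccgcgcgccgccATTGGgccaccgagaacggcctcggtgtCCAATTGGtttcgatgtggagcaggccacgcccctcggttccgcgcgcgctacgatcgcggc
Thrsp, chr7:97417551-97417800, minus strand: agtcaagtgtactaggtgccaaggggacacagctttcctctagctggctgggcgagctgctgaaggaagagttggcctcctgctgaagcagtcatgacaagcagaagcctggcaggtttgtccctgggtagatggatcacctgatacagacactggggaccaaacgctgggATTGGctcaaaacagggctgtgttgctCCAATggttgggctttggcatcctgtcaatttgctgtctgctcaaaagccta
Mlxipl, chr5:135089640-135089889, plus strand: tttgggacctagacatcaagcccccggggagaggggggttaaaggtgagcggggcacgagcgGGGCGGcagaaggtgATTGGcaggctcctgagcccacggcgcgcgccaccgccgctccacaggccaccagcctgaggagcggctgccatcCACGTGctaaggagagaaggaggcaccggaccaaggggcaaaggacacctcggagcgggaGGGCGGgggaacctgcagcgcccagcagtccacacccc

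All 9 genes matched at least 1 RefSeq start, with 13 windows of 300 bases (250 before and 50 after the start) among them. In Acly the capitals are 4 GC boxes, the nearest at -27 to -22, and a CCAAT box lay after the start at +38 to +42. In Fasn they are CCAAT boxes at -90 to -86, -62 to -58 and -59 to -55, of which the last 2 overlap on opposite strands. In Thrsp they are CCAAT boxes at -79 to -75 and -52 to -48. In Mlxipl the E-box stood at -98 to -93, beside a CCAAT box and 2 GC boxes. A CCAAT box was present in 9 of the 13 windows, which belonged to 8 of the 9 genes (Acaca had none), and in 37.4% of all 32851 RefSeq windows of this length. A GC box was present in 6 of the 13 windows, of 5 genes, and in 35.7% of all windows. The E-box and the sterol regulatory element were each found in 1 of the 13 windows, both of Mlxipl, the latter in its second window at -136 to -128, and in 7.15% and 1.24% of all windows. A TATA box was found in 1 window, that of Acacb, at -34 to -29, and in 13.6% of all windows. These are matches of letters in 1 window per start and say nothing of which factors were bound. The windows of Acaca and Acacb, the first window of Me1, the first and second of Srebf1 and the second of Mlxipl, which held the sterol regulatory element, lay wholly inside the annotated spans of the genes.

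The deletion was visible in the RNA. Nelfb (ENSMUSG00000013465, chr2:25199712-25211489 on GRCm38, minus strand) stood at 17.3, 19.6 and 22.3 counts per 1e+06 reads (CPM) in CTL replicates 1 to 3 and at 5.50, 3.90 and 5.55 CPM in Nelfb-/- replicates 1 to 3. The fitted difference was -1.99 on the log2 scale (SE 0.22), with an adjusted p of 0.00502 by limma, and part of the signal remained in every Nelfb-/- library. Libraries held 17.2 to 29.4 M (1e+06) reads, at which 3 reads correspond to 0.102 to 0.175 CPM, far below every member. A gene was called changed at an adjusted p of at most 0.05 (limma with Benjamini-Hochberg adjustment over all genes tested) and at least a 2-fold difference. By that rule 1824 genes (11.2%) differed, 1232 (7.58%) higher and 592 (3.64%) lower in Nelfb-/- cells. Under quantile normalization the split was 1014 higher and 834 lower, and the median log2 fold change of all genes moved from 0.07 to -0.07. On the first 2 principal components (59.9% and 27.7% of the variance) CTL replicate 3 and Nelfb-/- replicate 1 stood apart from the other libraries of their groups, and both recur below.

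Among the 9 genes, Acly was called higher in Nelfb-/- cells and none was called lower (limma; at an unadjusted p under 0.05 the counts were 2 higher and 0 lower, and with voom weights 0 and 0). Over all genes tested, 19.6% were higher and 12.9% lower at that unadjusted p, so 2 of 9 is near the share of the whole table. Acaca passed the adjusted p but stayed under the 2-fold limit. The median log2 fold change of the 9 was 0.20, beside 0.07 for all genes tested. In 2 genes, Acly and Acaca, every Nelfb-/- library exceeded every CTL library, as in 22.0% of all genes tested. In 1 gene, Thrsp, every Nelfb-/- library was below every CTL library, as in 16.1% of all genes tested. With 9 genes, counts of 1 and 2 are near those shares of the whole table. These are bulk libraries, in which fewer cells of a type and less RNA per cell cannot be told apart.

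**Figure D1:**
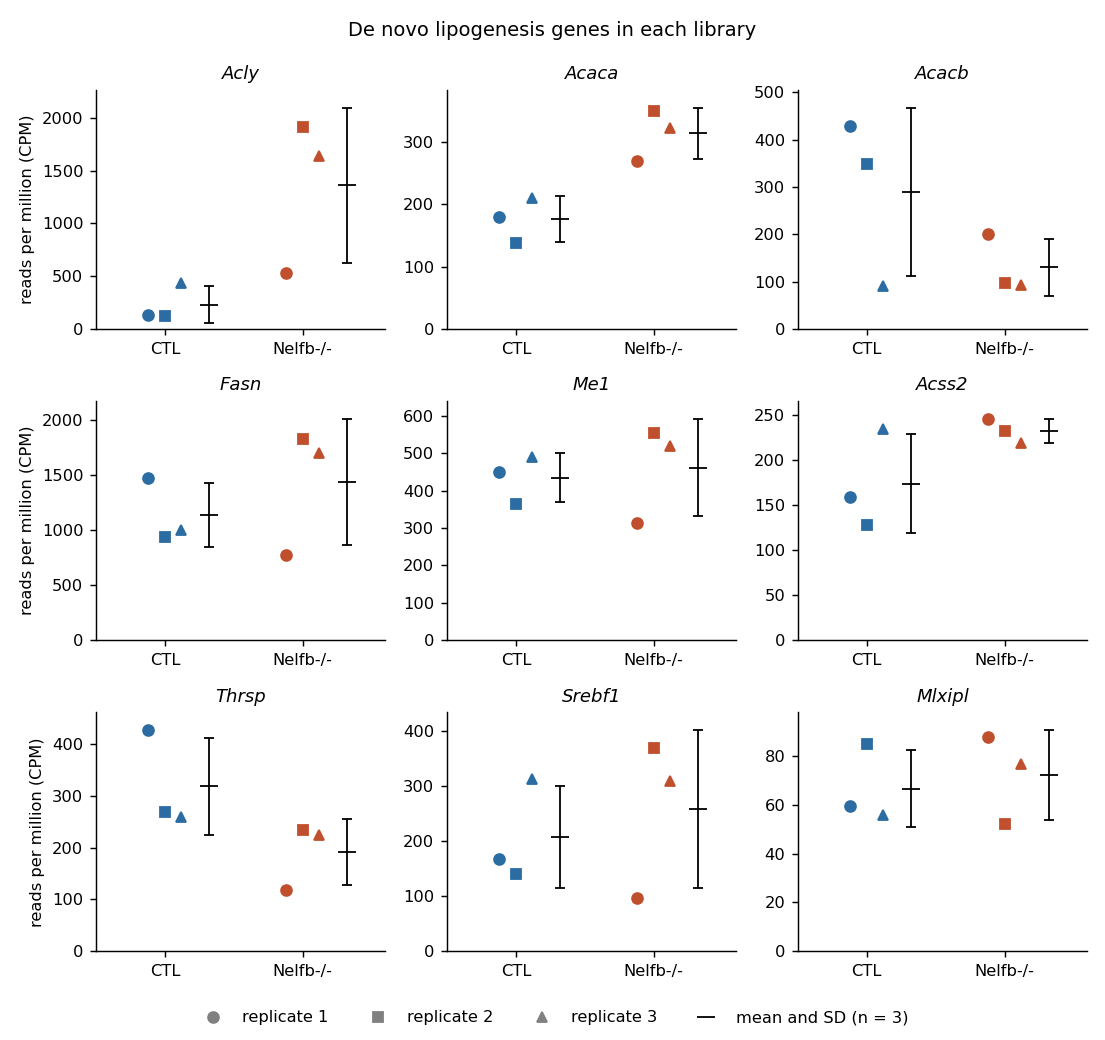
CPM of the 9 genes in each of the 6 libraries (y axis, starting at 0; a separate scale for each gene), with the mean and SD of each group (n = 3). Acly and Acaca lie higher in every Nelfb-/- library, Thrsp lies lower in every Nelfb-/- library, and the groups overlap in the other 6 genes.

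Acly and Acss2 are the enzymes that supply cytosolic acetyl-CoA, the former from citrate and the latter from acetate. Acly (ENSMUSG00000020917, chr11:100476353-100528000, minus strand) was at 131, 125 and 436 CPM in CTL replicates 1 to 3 and at 529, 1914 and 1642 CPM in Nelfb-/- replicates 1 to 3. The groups did not overlap, but CTL replicate 3 and Nelfb-/- replicate 1 were neighbours, while the other libraries were over 10-fold apart. The group means were 231 ± 178 and 1362 ± 734 CPM (SD, n = 3), a 5.91-fold ratio of means. The fitted log2 fold change was 2.62 (SE 0.66, 95% interval 1.03 to 4.21; limma, adjusted p = 0.0435).

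That call was close to its threshold. Leaving out 1 library at a time gave log2 fold changes from 2.27 to 3.21 and adjusted p-values from 0.0186 to 0.150 (limma), and the call held in 2 of the 6 fits. It held without CTL replicate 3 (3.21) or without Nelfb-/- replicate 1 (3.20). It was lost without CTL replicate 1 (adjusted p = 0.143 by limma), CTL replicate 2 (0.146), Nelfb-/- replicate 2 (0.127) or Nelfb-/- replicate 3 (0.150). The direction was higher in all 17 alternative fits and the call held in 10 of them.

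Acss2 (ENSMUSG00000027605, chr2:155517948-155585724, plus strand) was at 159, 128 and 235 CPM in CTL libraries and at 246, 233 and 219 CPM in Nelfb-/- libraries. CTL replicate 3 lay among the Nelfb-/- values and the other CTL libraries below them, and the log2 fold change of 0.47 (SE 0.23, 95% interval -0.10 to 1.03) did not pass (limma, adjusted p = 0.224). Leaving out CTL replicate 3 gave 0.71, with an adjusted p of 0.0276 (limma) and still under 2-fold. Acss2 shares 22544 bases of its span with Gss, a glutathione synthase gene on the opposite strand with a mean of 37.9 CPM, and the strand setting of the counting is not given in the sources used here, so some of its reads are uncertain.

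The log2 ratio of Acly to Acss2 reads within a library put these side by side. It was -0.28, -0.04 and 0.89 in CTL replicates 1 to 3 and 1.10, 3.04 and 2.90 in Nelfb-/- replicates 1 to 3. The groups did not overlap and differed by 2.16 in log2 units. The exact two-sided permutation p was 0.1, the smallest that 3 libraries against 3 can give, and 0.2 after adjustment over the 4 ratios examined. With 1 library left out the difference ran from 1.81, without Nelfb-/- replicate 2, to 2.78, without Nelfb-/- replicate 1. Reads are not corrected for gene length here, so the sign of a ratio within 1 library does not say which transcript was more abundant.

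Acetyl-CoA carboxylase has a cytosolic form, ACC1 from Acaca, which makes malonyl-CoA for fatty acid synthesis, and a form at the mitochondrial surface, ACC2 from Acacb, whose malonyl-CoA restrains fatty acid oxidation. Acaca (ENSMUSG00000020532, chr11:84129672-84401651, plus strand) was at 180, 138 and 211 CPM in CTL libraries and at 270, 350 and 322 CPM in Nelfb-/- libraries. Every Nelfb-/- library was higher, with means of 176 ± 36.6 and 314 ± 40.9 CPM (SD, n = 3). The log2 fold change of 0.85 (SE 0.20, 95% interval 0.36 to 1.33; limma, adjusted p = 0.0376) was a 1.80-fold change, past the adjusted p and under the 2-fold limit. With 1 library left out it ran from 0.68 to 0.98, with adjusted p-values from 0.0220 to 0.141 (limma).

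Acacb (ENSMUSG00000042010, chr5:114146535-114250761, plus strand) pointed the other way in its means and was dominated by 1 library. It was at 430, 350 and 91.0 CPM in CTL libraries and at 200, 96.5 and 93.3 CPM in Nelfb-/- libraries. CTL replicate 3 had the lowest value of all 6 and CTL replicates 1 and 2 the highest values, so the groups overlapped. The fitted log2 fold change was -0.97 (SE 0.63, 95% interval -2.47 to 0.53, limma adjusted p = 0.331). Leaving out CTL replicate 3 gave -1.67, which passed (limma, adjusted p = 0.0317). Leaving out CTL replicate 1 gave -0.55 and leaving out CTL replicate 2 gave -0.70, neither of which passed (limma, adjusted p = 0.671 and 0.619).

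The log2 ratio of Acaca to Acacb reads was -1.25, -1.34 and 1.21 in CTL libraries and 0.43, 1.86 and 1.79 in Nelfb-/- libraries. Again CTL replicate 3 lay with the Nelfb-/- libraries. The difference of 1.82 was not separable from the spread between libraries (exact permutation p = 0.2, adjusted 0.267, where 3 against 3 cannot go below 0.1). With 1 library left out it ran from 1.38, without CTL replicate 2, to 2.66, without CTL replicate 3.

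Fasn (ENSMUSG00000025153, chr11:120805846-120824547, minus strand), the synthase itself, was at 1469, 939 and 996 CPM in CTL libraries and at 775, 1822 and 1700 CPM in Nelfb-/- libraries. Nelfb-/- replicate 1 was the lowest library of all 6 and the other Nelfb-/- libraries were the highest. The fitted log2 fold change was 0.27 (SE 0.39, 95% interval -0.67 to 1.21, limma adjusted p = 0.675), an interval that holds both no change and a 2-fold rise. Without Nelfb-/- replicate 1 it was 0.66 and did not pass (limma, adjusted p = 0.146).

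Acly and Fasn act at successive stages of the route, and their reads stood differently to each other in the 2 groups. The log2 ratio of Acly to Fasn was -3.48, -2.91 and -1.19 in CTL replicates 1 to 3 and -0.55, 0.07 and -0.05 in Nelfb-/- replicates 1 to 3. All Nelfb-/- libraries were above all CTL libraries, by 2.35 on average, with a spread of 1.19 among CTL and 0.33 among Nelfb-/- libraries (SD, n = 3; exact permutation p = 0.1, adjusted 0.2). With 1 library left out the difference ran from 1.87, without CTL replicate 1, to 3.02, without CTL replicate 3.

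**Figure D2:**
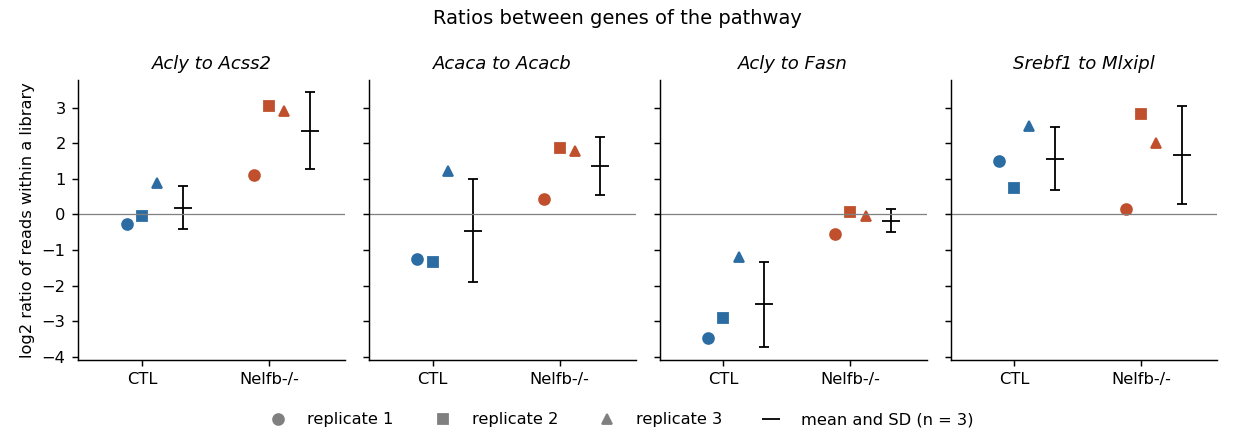
Log2 ratio of the reads of 2 genes within each library for the 4 ratios examined (shared y axis), with the mean and SD of each group (n = 3). Acly to Acss2 and Acly to Fasn are higher in every Nelfb-/- library, whereas the groups overlap for Acaca to Acacb and for Srebf1 to Mlxipl.

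Me1 (ENSMUSG00000032418, chr9:86581371-86695953, minus strand), the cytosolic malic enzyme that yields NADPH, was at 451, 364 and 491 CPM in CTL libraries and at 313, 554 and 520 CPM in Nelfb-/- libraries. The Nelfb-/- libraries held both the lowest and the highest values, and the log2 fold change was 0.05 (SE 0.26, 95% interval -0.58 to 0.69; limma, adjusted p = 0.911). Its sign turned under median-of-ratios scaling (-0.011) and when CTL replicate 2, Nelfb-/- replicate 2 or Nelfb-/- replicate 3 was left out, so no direction can be given.

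Thrsp (ENSMUSG00000035686, chr7:97412938-97417730, minus strand) encodes Spot 14, a small protein of lipogenic tissues that responds to thyroid hormone and carbohydrate. It was at 426, 268 and 259 CPM in CTL libraries and at 118, 233 and 225 CPM in Nelfb-/- libraries. Every Nelfb-/- library was lower, yet CTL replicates 2 and 3 and Nelfb-/- replicates 2 and 3 lay close together, and the log2 fold change of -0.75 (SE 0.33, 95% interval -1.54 to 0.04) did not pass (limma, adjusted p = 0.170).

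The transcription factor genes did not separate the groups. Srebf1 (ENSMUSG00000020538, chr11:60199089-60222581, minus strand) was at 168, 141 and 312 CPM in CTL libraries and at 97.2, 369 and 309 CPM in Nelfb-/- libraries. CTL replicate 3 and Nelfb-/- replicates 2 and 3 were the high libraries and Nelfb-/- replicate 1 the lowest. The fitted log2 fold change was 0.20 (SE 0.56, 95% interval -1.14 to 1.53, limma adjusted p = 0.841), and its sign turned when CTL replicate 2, Nelfb-/- replicate 2 or Nelfb-/- replicate 3 was left out. The end of Srebf1 overlaps Rai1 on the opposite strand by 109 bases.

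Mlxipl (ENSMUSG00000005373, chr5:135089890-135138382, plus strand) was at 59.3, 84.8 and 55.9 CPM in CTL libraries and at 87.9, 52.0 and 76.9 CPM in Nelfb-/- libraries. High and low libraries occurred in both groups. Its log2 fold change was 0.11 (SE 0.25, 95% interval -0.50 to 0.71; limma, adjusted p = 0.806), with a sign that turned without CTL replicate 3 or without Nelfb-/- replicate 1. By RT-qPCR normalized to Gapdh, the study reported Mlxipl as markedly lower in Nelfb-/- cells. The reads here do not show that fall, and the reason for the difference was not tested. The log2 ratio of Srebf1 to Mlxipl reads was 1.502, 0.73 and 2.48 in CTL libraries and 0.14, 2.83 and 2.01 in Nelfb-/- libraries, a difference of 0.09 (exact permutation p = 1). Reads per gene do not tell the SREBP1a and SREBP1c or the ChREBP isoforms apart, nor how much protein was processed or in the nucleus.

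**Figure D3:**
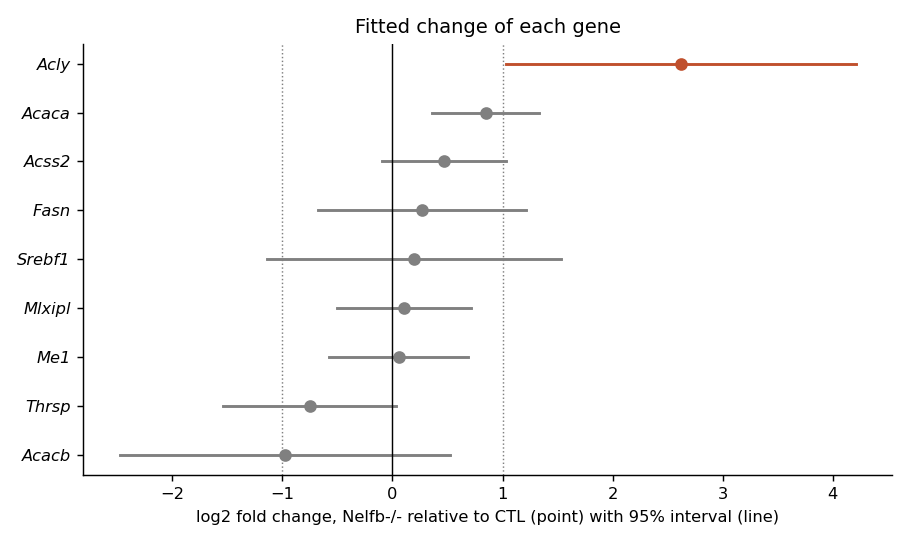
Fitted log2 fold change of each gene, Nelfb-/- relative to CTL (x axis; point), with its 95% interval (line), ordered by size. The dotted lines mark 2-fold in either direction and the colour marks the gene called changed, Acly, whose interval of 1.03 to 4.21 is the widest of the 9; the Acaca interval of 0.36 to 1.33 is the other that excludes 0.

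Per length of annotated exon, the order of the levels differed between the groups. In CTL libraries the mean level was highest for Thrsp, at 145 ± 43.0 CPM per kb, followed by Me1 at 113 ± 16.9 and Fasn at 104 ± 26.6 CPM per kb. These 3 neighbours did not differ beyond their spread. Acly followed at 43.7 ± 33.6, Srebf1 at 36.7 ± 16.4 and Acacb at 30.1 ± 18.4 CPM per kb, again within each other's spread. Acss2 at 17.1 ± 5.43, Mlxipl at 12.0 ± 2.85 and Acaca at 10.3 ± 2.15 CPM per kb were the lowest. In Nelfb-/- libraries Acly had the highest mean, 258 ± 139 CPM per kb, before Fasn at 131 ± 52.3, Me1 at 120 ± 33.8 and Thrsp at 87.7 ± 29.2 CPM per kb. Acly thus moved from behind Fasn to the front, with a spread in Nelfb-/- libraries (100 to 363 CPM per kb) that reached down to the level of its neighbours. The lowest were Srebf1 at 45.9 ± 25.4, Acss2 at 22.9 ± 1.30, Acaca at 18.4 ± 2.39, Acacb at 13.5 ± 6.33 and Mlxipl at 13.0 ± 3.32 CPM per kb (all SD, n = 3).

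The 9 genes together held 3474, 2536 and 3087 CPM in CTL libraries and 2637, 5624 and 5108 CPM in Nelfb-/- libraries. Since this total moved with Acly itself, shares of it are a description only. Acly supplied 3.78%, 4.92% and 14.1% of those reads in CTL libraries and 20.1%, 34.0% and 32.1% in Nelfb-/- libraries. Fasn supplied 29.4% to 42.3% in every library, and Acacb 12.4%, 13.8% and 2.95% against 7.60%, 1.72% and 1.83%.

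The genes whose log2 levels followed Acly most closely over the 6 libraries were Slc38a10 (Pearson r = 0.9996), Astn2 (0.999) and Draxin (0.999). Those nearest to Acacb were Abcc4 (0.999), Abhd3 (0.998) and Bex1 (0.996). Slc38a10, of an amino acid transporter family, stood at 150, 149 and 197 CPM in CTL libraries and at 209, 288 and 275 CPM in Nelfb-/- libraries, the same order of libraries as Acly. Draxin, a secreted guidance protein, was low, from 0.0902 to 6.81 CPM. In CTL replicates 1 and 2 it was at 0.0902 and 0.0933 CPM, under the 3 reads that correspond to 0.135 and 0.140 CPM there. None of the 6 passed the adjusted p (limma), and with 16251 genes compared over 6 libraries such high values describe these libraries and are given without a test.

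Among 15 tested genes of the other lipogenic enzymes and carriers, 2 were called lower and none higher (limma; at an unadjusted p under 0.05, 7 lower and 1 higher, and none higher with voom weights). Over all genes these shares were 3.64% called lower, and 12.9% lower and 19.6% higher at the unadjusted p. By the adjusted p alone, 4 of the 15 were lower and 1 higher, beside 947 lower and 1619 higher of all 16251 genes tested. The 2 called lower with the 2-fold limit were both stearoyl-CoA desaturases, which put the first double bond into newly made saturated fatty acids. Scd1 was at 28091, 26180 and 20552 CPM in CTL libraries and at 5387, 4948 and 4177 CPM in Nelfb-/- libraries (log2 fold change -2.36, SE 0.47, limma adjusted p = 0.0214). Scd2 was at 1913, 1519 and 2940 CPM in CTL libraries and at 239, 589 and 487 CPM in Nelfb-/- libraries (log2 fold change -2.32, SE 0.41, limma adjusted p = 0.0164).

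The desaturases therefore stood opposite to Acly in these libraries, with groups that did not overlap in either direction. Without CTL replicate 1 or Nelfb-/- replicate 3 the number called lower in this list was 0, and without CTL replicate 2 or Nelfb-/- replicate 2 it was 1. Without CTL replicate 3, 1 gene of the list was called higher, beside 1704 of all 16324 genes tested in that fit. The most abundant of the others were Pgd and G6pdx, NADPH-yielding enzymes of the pentose phosphate pathway, Idh1, and Slc25a1, the mitochondrial citrate carrier that feeds Acly. Slc25a1 was at 405, 340 and 346 CPM in CTL libraries and at 182, 295 and 239 CPM in Nelfb-/- libraries, every Nelfb-/- library lower (log2 fold change -0.63, SE 0.21, limma adjusted p = 0.0905). The log2 fold changes of Pgd, Idh1 and G6pdx were -0.02, -0.30 and -0.47 and none passed. The median of the list was -0.30, and 11 of its 15 values were below 0.

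Of the 13 genes that control SREBP and ChREBP, none was called in either direction, beside 11.2% of all genes (limma; at an unadjusted p under 0.05, 1 higher and 2 lower, beside 19.6% and 12.9% of all genes, and 0 with voom weights). Nr1h3, the LXR alpha gene, named here after its values were seen, passed the adjusted p under 2-fold at -0.57 (limma, adjusted p = 0.0407). Insig1, which holds SREBP in the endoplasmic reticulum and is itself an SREBP target, was at 773, 615 and 414 CPM in CTL libraries and at 356, 1431 and 1068 CPM in Nelfb-/- libraries (log2 fold change 0.49, SE 0.54, limma adjusted p = 0.573). As with Fasn, Nelfb-/- replicate 1 was the lowest of the 6 libraries and Nelfb-/- replicates 2 and 3 the highest. The log2 fold changes were -0.47 for Rxra, the partner of LXR and PPAR receptors, 0.21 for the protease gene Mbtps1 and -0.03 for Srebf2, the SREBP of cholesterol synthesis.

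Of 20 cholesterol synthesis genes, 1 was called lower and none higher (limma; at an unadjusted p under 0.05, 4 lower and 0 higher, and none higher with voom weights). Over all genes 3.64% were called lower and 12.9% were lower at the unadjusted p. Cyp51, the lanosterol demethylase, was at 724, 654 and 415 CPM in CTL libraries and at 158, 192 and 177 CPM in Nelfb-/- libraries (log2 fold change -1.73, SE 0.24, limma adjusted p = 0.00843). The others were mixed, with log2 fold changes of -0.16 for Hmgcs1, 1.61 for Idi1, -0.80 for Sc5d and 0.48 for Dhcr7, and a list median of -0.22. None of these 4 passed the adjusted p. Fdft1, squalene synthase, named here after its values were seen, passed it under 2-fold at -0.64 (limma, adjusted p = 0.0308). The number called lower was 0 without Nelfb-/- replicate 3. Without CTL replicate 3, 2 of the 20 genes were called higher, beside 1704 of all 16324 genes tested in that fit, a similar share.

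AMP-activated protein kinase phosphorylates and inhibits both carboxylases. None of its 6 tested subunit genes was called (limma; none at an unadjusted p under 0.05 either, and 0 with voom weights). Over all genes 11.2% were called in either direction, so 0 of 6 is near that share, and 19.6% were higher and 12.9% lower at the unadjusted p. The log2 fold changes were -0.42 for Prkaa1, -0.15 for Prkab2, -0.19 for Prkag2 and 0.12 for Prkag1. Of 12 genes for glucose entry and the insulin signal, 3 were called lower and none higher (limma; at an unadjusted p under 0.05, 8 lower and 0 higher, and none higher with voom weights). Over all genes 3.64% were called lower and 12.9% were lower at the unadjusted p. Slc2a4, the insulin-responsive transporter GLUT4, was at 112, 99.5 and 155 CPM in CTL libraries and at 22.6, 34.1 and 33.3 CPM in Nelfb-/- libraries (log2 fold change -2.02, SE 0.24, limma adjusted p = 0.00574).

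Cs, the citrate synthase that makes the substrate later split by Acly, was at 697, 656 and 668 CPM in CTL libraries and at 258, 357 and 332 CPM in Nelfb-/- libraries (log2 fold change -1.11, SE 0.18, limma adjusted p = 0.0123). Irs1, an adaptor of the insulin receptor, was at 137, 125 and 74.0 CPM and at 59.4, 49.1 and 50.7 CPM (log2 fold change -1.03, SE 0.25, limma adjusted p = 0.0383). All 12 fitted values of this list were below 0, also under both other scalings, with a median of -0.88. The most abundant others were Pcx at -0.53, Pdha1 at -0.47, Slc2a1 at -0.95 and Insr at -0.95 on the log2 scale, none past the adjusted p. Without CTL replicate 1, CTL replicate 2 or Nelfb-/- replicate 3 the number called lower was 1.

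**Figure D4:**
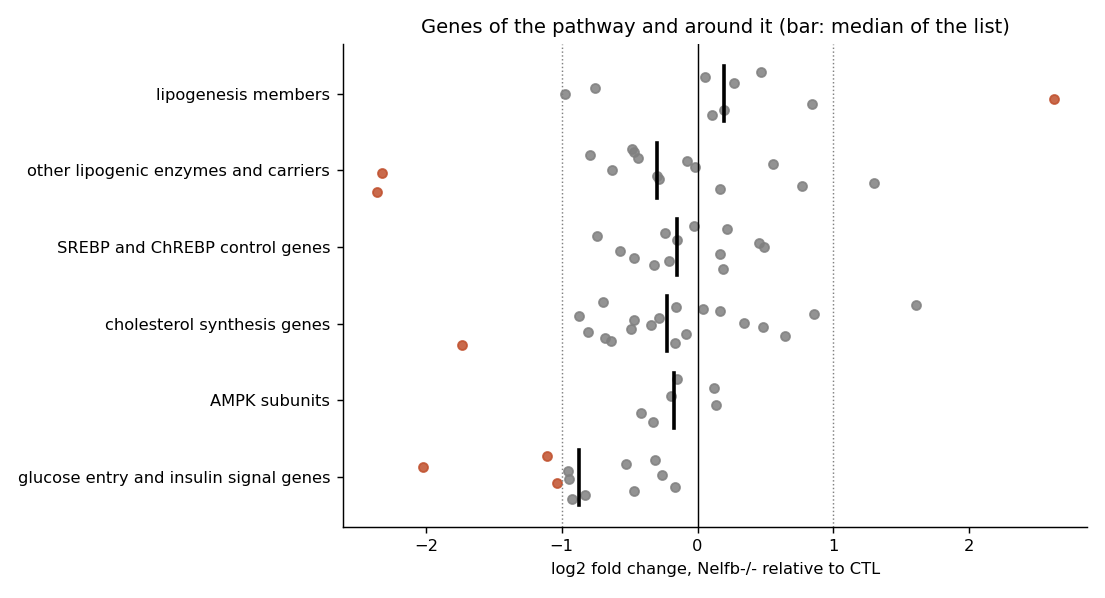
Fitted log2 fold change (x axis) of every tested gene in the 9 lipogenesis genes and 5 further lists, 1 point a gene, with colour for genes called changed, a bar for the median of each list and dotted lines at 2-fold. Acly is the coloured point to the right of 0, Scd1, Scd2, Cyp51, Slc2a4, Cs and Irs1 are the coloured points to the left, and all 12 glucose and insulin genes lie below 0.

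The labels call the cells adipocytes, and the most abundant adipocyte markers were high in every library. Fabp4, the fatty acid binding protein of fat cells, ranged from 12706 to 17827 CPM in CTL and from 4571 to 10808 CPM in Nelfb-/- libraries. The log2 fold changes of the 3 most abundant, Fabp4, Lpl and Cd36, were -1.04, -0.50 and -0.70, none past the adjusted p (limma). Of the 12 adipocyte markers 2 were called lower and 1 higher (7 lower and 1 higher at an unadjusted p under 0.05), beside 3.64% and 7.58% of all genes called and 12.9% and 19.6% at the unadjusted p. The 2 lower were Retn and Slc2a4, the latter also in the glucose list. The higher was Lep, the leptin gene, which was at 0.18, 0.373 and 2.04 CPM in CTL and at 10.3, 32.4 and 33.0 CPM in Nelfb-/- libraries (limma, adjusted p = 0.0136). Retn and Lep are named here after their values were seen. The summed level of the 12 was 25779 to 41717 CPM in CTL and 16899 to 25376 CPM in Nelfb-/- libraries. The CTL library with the lowest sum, replicate 3, had the highest Acly of its group, whereas the Nelfb-/- library with the lowest sum, replicate 1, had the lowest Acly of its group.

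The 10 fibroblast and preadipocyte markers, led by Col1a1, Col1a2 and Col3a1, summed to 4843, 4113 and 17324 CPM in CTL and to 9145, 32137 and 34569 CPM in Nelfb-/- libraries, with 1 of 10 called higher (Dlk1, named after its values were seen), beside 7.58% of all genes. The sums of the groups overlapped. At an unadjusted p under 0.05, 6 of 10 were higher, beside 19.6% of all genes, and the median log2 fold change was 1.24. All 10 fitted values were above 0, and 9 of 10 under quantile normalization. The log2 fold changes of those collagens were 1.47, 1.21 and 2.44, none past the adjusted p (limma). The high libraries, CTL replicate 3 and Nelfb-/- replicates 2 and 3, were also the high libraries for Srebf1 and the low ones for Acacb. Their part in the lipogenic values was not tested.

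The 10 macrophage and leukocyte markers summed to 789, 419 and 218 CPM in CTL and to 6665, 2131 and 3613 CPM in Nelfb-/- libraries. Of these, 9 were called higher, beside 7.58% of all genes, with log2 fold changes of 3.52 for Lyz2, 3.07 for Mrc1 and 3.43 for C1qa. Nelfb-/- replicate 1 had the highest sum and the lowest Acly of its group, and CTL replicate 3 had the lowest sum and the highest Acly of its group. The part of these cells in the lipogenic values was not tested.

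The remaining lists were low, and their counts of genes called higher stand beside 7.58% of all genes. The muscle markers, led by Acta1, Des and Myh3, summed to 6.95 to 9.25 CPM in CTL and 45.3 to 73.7 CPM in Nelfb-/- libraries, with 5 of 5 tested called higher and Myod1, named here after its values were seen, at 0 in 2 CTL libraries. The glial and melanocyte markers, led by Mitf, Sox10 and Dct, summed to 61.4 to 82.6 and 95.8 to 180 CPM, with 4 of 6 called higher and Tyr, a melanocyte gene named here after its values were seen, at 0 in all CTL libraries. Mitf, which made up most of each CTL sum, was not called. It was at 62.8, 72.4 and 47.2 CPM in CTL and at 96.3, 21.6 and 26.8 CPM in Nelfb-/- libraries (log2 fold change -0.65, limma adjusted p = 0.465). The keratinocyte markers, led by Krt10, Krt14 and Trp63, summed to 2.79 to 3.45 and 7.11 to 15.1 CPM, with 1 of 4 tested called higher. Genes were kept by their mean over all 6 libraries, at a limit of 0.448 CPM. Tyr, Dct, Krt14 and the muscle gene Actc1, named here after its values were seen, had CTL means of 0, 0.271, 0.205 and 0.057 CPM. These genes passed only through their Nelfb-/- values, so the counts called in the muscle, glial and melanocyte, and keratinocyte lists were partly fixed in advance. The endothelial markers, led by Kdr, Cdh5 and Tek, summed to 7.31 to 11.8 and 7.92 to 20.1 CPM, with none called (limma; 1 of 5 higher at an unadjusted p under 0.05, beside 19.6% of all genes). Their part in the lipogenic values was not tested.

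**Figure D5:**
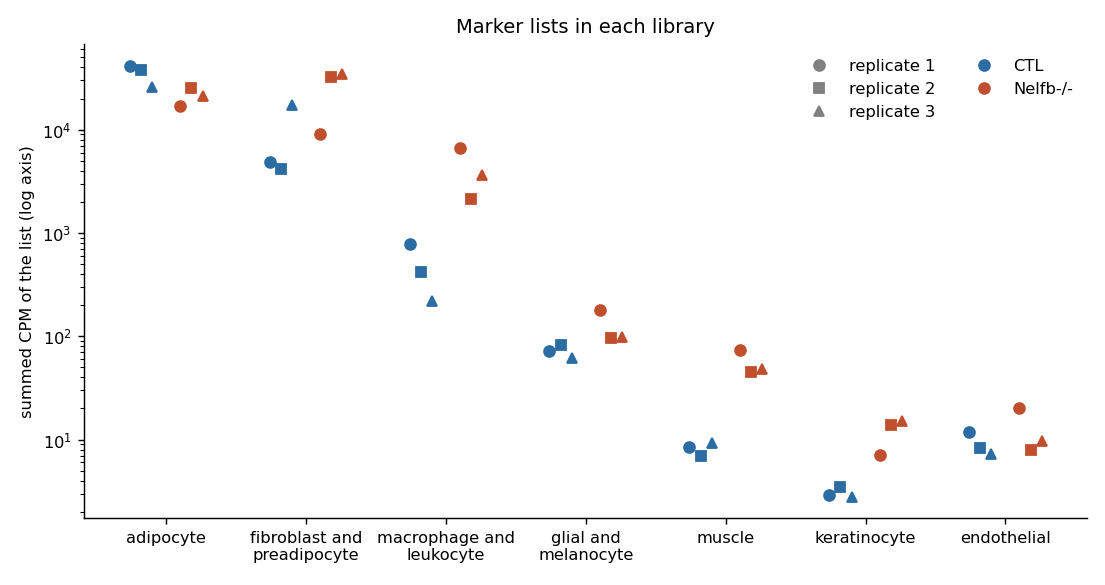
Summed CPM of 7 marker lists in each library (y axis, logarithmic), with colour for the group and the shape of the point for the replicate. Adipocyte sums run from 16899 to 41717 CPM and are lower in every Nelfb-/- library. Macrophage, muscle, glial and melanocyte, and keratinocyte sums are higher in every Nelfb-/- library, and CTL replicate 3 lies above Nelfb-/- replicate 1 for the fibroblast list.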

How the data were processed

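RNA-seq libraries of 3 CTL and 3 Nelfb-/- cultures were taken from 1 table of 6 columns. Per the labels and the study's methods, the authors aligned reads to mm10 (STAR 2.7, Partek 9.0.20.0202 in the processing notes) and deposited CPM values with a small constant added and no length correction. The counting strand is not given in the sources used here. Low values were whole multiples of 1 read in 76.0 to 79.5% of cases (within 0.1 read), so no count test was run. Values were put on a common scale of 22.3 M reads, genes averaging at least 10 reads were kept, and log2(reads + 1) was fitted with limma 3.58.1 (R 4.3.3) with an abundance trend and Benjamini-Hochberg adjustment. Fold changes are on that scale. Library depth of 17.2 to 29.4 M reads (M, 1e+06) was recovered from the values, and floors cover counting error only. Ratios of 2 genes were compared by exact permutation. Gene spans are from GENCODE vM21, levels per kb use the union of exons, and promoter letters are from RefSeq. The procedure was tested on simulated data. Alternatives changed the pseudocount, filter, scaling, moderation, weights, fold limit, replicate block and left-out library. The members and gene lists were chosen with earlier results of these data known, and a few listed genes are not reported here and were taken out of the lists. Genes named besides the 9 were Nelfb, all called genes and up to 4 further abundant genes of each pathway list, the 3 most abundant of each marker list, and the 3 genes most like Acly and Acacb. Gss and Rai1 are named because they overlap a member. Fdft1, Nr1h3, Retn, Lep, Dlk1, Actc1, Myod1 and Tyr fall outside this rule and were named after their values were seen.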

Additional observations from a re-analysis of the deposited data

How the results depend on the processing

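Of the 9 genes, Acly alone was called and its call rested on the model. The number called higher was 0 without the abundance trend, 0 gene by gene without moderation and 0 with voom weights (adjusted p for Acly 0.0591, 0.139 and 0.0501, limma). It was 2, with Acaca, by the adjusted p alone or with a 1.5-fold limit, rules that called 1619 and 1562 of all 16251 genes higher. With 1 library left out it ran from 0 to 1, and the number called lower from 0 to 1, which was Acacb without CTL replicate 3. Gene by gene, 684 genes of the table were called, and with 1 library left out 426 to 2480. Me1 was -0.011 under median-of-ratios scaling. With 1 library left out, the log2 fold change ran from -0.10 to 0.31 for Me1, from -0.17 to 0.79 for Srebf1 and from -0.052 to 0.33 for Mlxipl, and the log2 ratio of Srebf1 to Mlxipl from -0.50 to 0.85. The other 3 ratios kept their direction in every alternative run. The causes were not tested. Same-numbered libraries correlated at 0.515, -0.395 and 0.518 in their deviations from group means, and not every library correlated best with its own number, so the numbers were not taken to pair the samples. With the replicate block 2175 genes were called, 1505 higher and 670 lower, and Acly stayed the called gene of the 9 (adjusted p = 0.0150, limma). With 3 libraries a group, the 95% intervals of Fasn, Srebf1, Acacb, Thrsp and Acss2 hold both no change and a 2-fold change, so differences of that size could not be told from none.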
